A study of Mus musculus with 10 samples.

Results

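The dentate gyrus of 10-week-old mice was compared with that of 6-week-old mice, an interval that runs from adolescence into young adulthood. By sample title, 2 arrays of 10 weeks were set against 2 arrays of 6 weeks, and the 2 arrays of 8 weeks were read as the point between, so 6 of the 10 arrays in the series were described and 4 of them compared. All mice were labelled as female, of a strain written C56BL/6J, with no treatment given; the labels set the groups apart by age alone. The other 4 arrays, 2 of 4 weeks and 2 of 12 weeks, entered the fit for the estimate of spread and gave a second interval with no array in common. Both gyri were cut from the hippocampus with a needle tip, and total RNA was hybridised to whole-transcript Affymetrix arrays. Nothing in the labels tells if arrays of one age are different mice, one mouse or a pool, and the p-values below rest on the array-to-array spread, part of which may be technical.

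The dentate gyrus keeps a niche of radial glia-like stem cells below its granule cell layer. These cells give rise to intermediate progenitors that divide, then to migrating neuroblasts that express doublecortin, and finally to granule neurons wired into the hippocampal circuit. Output of this lineage is known to decline through adolescence. Over the same weeks oligodendrocyte precursors differentiate and wrap axons with myelin, a membrane rich in cholesterol.

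Levels are log2 values as deposited, for 19752 genes, with 1 probe set per gene. Genes with a mean under 7.01 log2 units, a reference taken from olfactory and other receptors, are called dim below, and 27.2% of genes were dim. Markers of mature granule cells, the neurons of the labelled tissue, had a mean between 11.22 and 11.35 on every array. The sex label went against the data: Xist, an RNA that coats one X chromosome in female cells, lay at 5.41 and 5.80 at 6 weeks, 5.99 and 5.80 at 8 weeks and 5.83 and 5.98 at 10 weeks, whereas the Y-linked gene Kdm5d lay at 9.20 and 9.15 at 6 weeks, 8.91 and 9.17 at 8 weeks and 8.89 and 8.93 at 10 weeks. On the array of 6 weeks replicate 1, Ttr, the transthyretin gene of choroid plexus, stood at 13.77, against 10.15 on the other array of that age and 9.41 to 9.77 on the arrays of 8 and 10 weeks. Each list is therefore given with that array and, where its count moved by over 1.5 times or its direction turned, without it. In tissue pieces such as these, fewer cells of a type and less RNA per cell cannot be told apart.

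No gene passed the adjusted threshold of 0.05 between 10 and 6 weeks (0 of 19752 genes, 0.0%, limma with Benjamini-Hochberg adjustment), and the same fit passed 0 genes between 8 and 6 weeks and 0 between 10 and 8 weeks. Without 6 weeks replicate 2, 8 genes passed as lower at 10 weeks, Ttr among them. Without 8 weeks replicate 2, 876 genes passed as higher and 203 as lower at 8 than 6 weeks. That fit left 8 weeks replicate 1 as the only 8-week array, and its values stood apart. Its lower quartile was 6.92, against 6.72 to 6.84 on the other arrays. Its mean correlation with the other arrays was 0.9952, against 0.9966 to 0.9974 for the rest. The part of this array in the 8-week values was not tested. At an unadjusted p under 0.05, 670 genes (3.39%) were higher at 10 weeks and 925 (4.68%) were lower. Without 6 weeks replicate 1 these counts were 299 (1.51%) and 402 (2.04%). Both 10-week arrays lay above both 6-week arrays for 4331 genes (21.9%) and below them for 4836 (24.5%), and 51.3% of all genes had a difference below 0. These shares are the background for every count that follows, and they include dim genes. Without the dimmest 30% of genes, 4350 genes still lay below without overlap, so 24.5% is a low background for bright lists. The 2 directions differed in brightness: 61.0% of the higher genes were dim, against 9.51% of the lower genes. Among genes that were not dim, 5.82% were lower and 1.81% higher. That is the closer background for the neuroblast, myelin, cholesterol and meningeal lists, which held 0 dim genes. The split depended on scaling. Higher genes made up 42.0% of those past the unadjusted threshold on the deposited scale, 45.0% after quantile normalization and 68.7% after each array was centred on its median, which moved the median difference of all genes from -0.0037 to 0.031. Below, each difference is 10 minus 6 weeks in log2 units ± its standard error, with the p of the limma fit. No unadjusted p given below survived adjustment over all genes, and "lower" or "higher" describes the measured arrays.

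**Figure D1:**
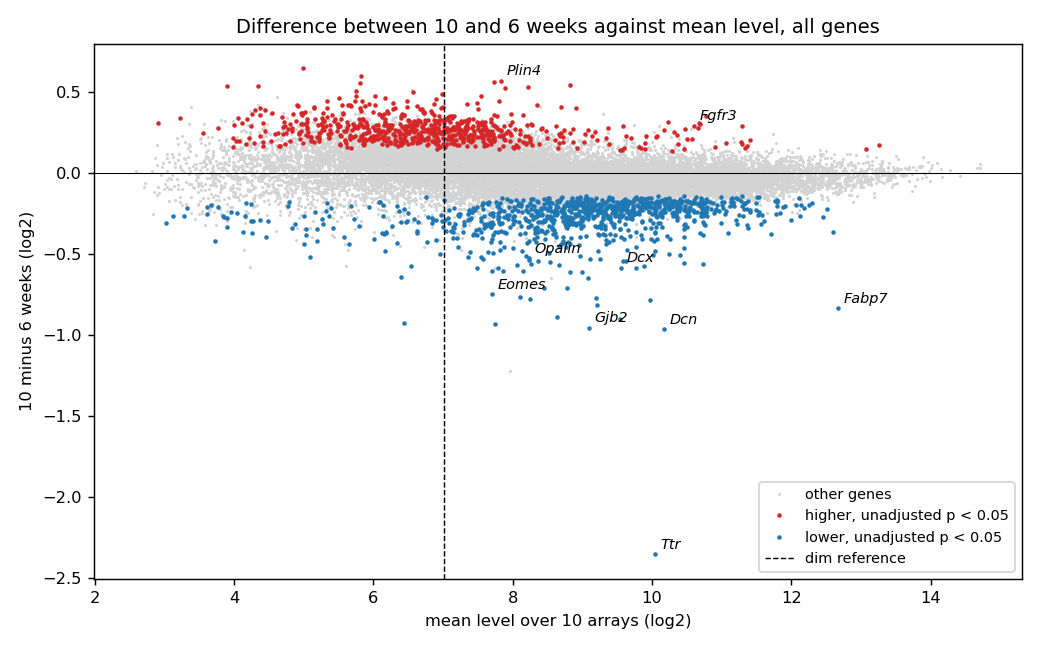
Difference between 10 and 6 weeks (log2, vertical axis) against mean level over 10 arrays (log2, horizontal axis) for all 19752 genes. Red and blue points passed an unadjusted p under 0.05 (670 higher, 925 lower), and the dashed line is the dim reference at 7.01. Left of the line lie 61.0% of the red points and 9.51% of the blue points.

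Markers of young neurons were lower at 10 weeks. Eomes, the T-box factor of intermediate progenitors, lay at 8.11 and 8.00 at 6 weeks, 7.77 and 7.55 at 8 weeks and 7.42 and 7.19 at 10 weeks. Both arrays of each age lay below both arrays of the age before, and the difference was -0.75 ± 0.10 (adjusted p = 0.130, limma). Igfbpl1, a secreted protein of progenitors and neuroblasts, lay at 8.85 and 8.92 at 6 weeks, 8.69 and 8.51 at 8 weeks and 8.27 and 8.37 at 10 weeks, a difference of -0.56 ± 0.09 (adjusted p = 0.253, limma). Sstr2, a somatostatin receptor, gave -0.50 ± 0.08, unadjusted p = 1.78e-04. Slc17a6, a vesicular glutamate transporter that the thalamus list also holds, gave -0.35 ± 0.15, unadjusted p = 0.0418. The proneural factor Neurog2 gave 0.01 ± 0.14, unadjusted p = 0.924. Of 17 measured genes of the intermediate progenitor list, 13 were below 0, 4 were lower at an unadjusted p under 0.05 and 0 were higher, with a median of -0.13 against -0.0037 over all genes. Without 6 weeks replicate 1 the median was -0.06.

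Neuroblasts showed the same direction over a longer list. Dcx, the microtubule-binding doublecortin, lay at 9.71 and 9.76 at 6 weeks, 9.40 and 9.50 at 8 weeks and 9.20 and 9.11 at 10 weeks. The 3 ages did not overlap, and the difference was -0.58 ± 0.07 (adjusted p = 0.125, limma). Dpysl5, a collapsin response mediator of growth cones, lay at 10.29 and 10.26 at 6 weeks, 9.96 and 9.97 at 8 weeks and 9.76 and 9.78 at 10 weeks, a difference of -0.50 ± 0.06 (adjusted p = 0.125, limma). Its relative Dpysl3 gave -0.48 ± 0.07 (adjusted p = 0.130, limma). Cd24a, a surface glycoprotein used to sort neuroblasts, lay at 9.59 and 9.39 at 6 weeks, 8.90 and 9.38 at 8 weeks and 8.67 and 8.78 at 10 weeks; its 8-week arrays were far apart, and one of them lay beside the lower 6-week array. The transcription factor Sox11 gave -0.20 ± 0.09, unadjusted p = 0.0411. Of 29 measured genes, 27 were below 0. At an unadjusted p under 0.05, 10 were lower (34.5%, against 4.68% of all genes and 5.82% of genes not dim). In 20 genes both 10-week arrays lay below both 6-week arrays (69.0%, against 24.5% of all genes, a low background for this bright list). The median was -0.17, and -0.16 without 6 weeks replicate 1.

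**Figure D2:**
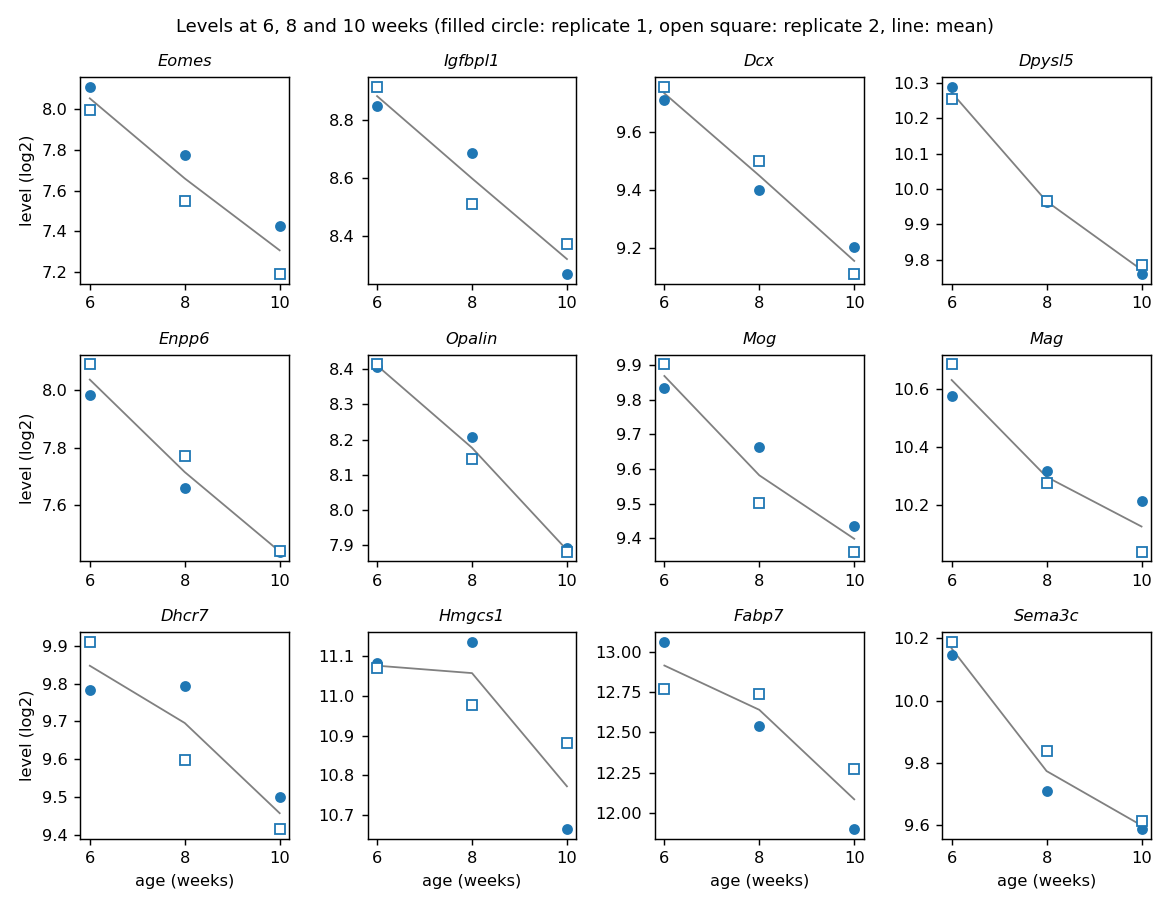
Levels (log2) on each array at 6, 8 and 10 weeks for 12 genes of neurogenesis, myelin, cholesterol synthesis and axon guidance. Filled circles are replicate 1, open squares replicate 2 and the line joins the means; each panel has its own vertical range. In every panel both 10-week arrays lie below both 6-week arrays, with Dcx going from 9.71 and 9.76 to 9.20 and 9.11.

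Stem cell markers were lower in part. Fabp7, a fatty acid-binding protein of radial glia, lay at 13.07 and 12.77 at 6 weeks, 12.54 and 12.74 at 8 weeks and 11.90 and 12.27 at 10 weeks, a difference of -0.83 ± 0.14 (adjusted p = 0.253, limma). Nes, the intermediate filament nestin, gave -0.37 ± 0.10, unadjusted p = 0.00352, and Lpar1, a lysophosphatidic acid receptor of these cells, -0.38 ± 0.08, unadjusted p = 9.57e-04. Id3, an inhibitor of differentiation downstream of BMP signals, gave -0.33 ± 0.09, unadjusted p = 0.00462. The homeodomain protein Hopx (-0.15 ± 0.08) and the astroglial filament Gfap (-0.15 ± 0.08) did not reach the unadjusted threshold. Of 24 measured genes, 6 were lower at an unadjusted p under 0.05, 0 were higher and 20 were below 0, with a median of -0.08. Astrocytes share several of these genes. In the astrocyte list of 24 genes, 2 were lower and 2 higher at that threshold, but 0 lower and 1 higher without 6 weeks replicate 1. The water channel Aqp4 was one of the lower genes, at -0.31 ± 0.10, unadjusted p = 0.0102. Its unadjusted p was 0.0856 (limma) with the array left out. The gap junction genes Gja1 (-0.12 ± 0.06, unadjusted p = 0.0711) and Gjb6 (0.01 ± 0.07, unadjusted p = 0.921) did not reach the threshold, and the growth factor receptor Fgfr3 was higher with or without the array.

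Genes of cell division were lower in part. Mki67, the proliferation marker, lay at 7.28 and 7.40 at 6 weeks, 7.29 and 7.13 at 8 weeks and 7.11 and 6.97 at 10 weeks, a difference of -0.30 ± 0.08, unadjusted p = 0.00538. Both of its 10-week arrays lay below every array of 6 and 8 weeks. Top2a, the topoisomerase of dividing cells, gave -0.34 ± 0.13, unadjusted p = 0.0320. Rrm2, a subunit of ribonucleotide reductase, gave -0.35 ± 0.07, unadjusted p = 0.00103, and Hmmr, a spindle protein at a dim level, -0.35 ± 0.07, unadjusted p = 7.91e-04. The mitotic kinase Cdk1 did not reach the threshold (-0.20 ± 0.12, unadjusted p = 0.144). Of 49 measured genes, 19 were dim. Lower levels at an unadjusted p under 0.05 were seen for 10 genes (20.4%, against 4.68% of all genes) and higher levels for 0. Both 10-week arrays lay below both 6-week arrays in 22 genes (44.9%, against 24.5% of all genes). They lay above both in 7 of the 49, where the share over all genes was 21.9%. The median was -0.10, and -0.10 without 6 weeks replicate 1.

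Genes of the oligodendrocyte lineage were lower in part, and the precursor markers Pdgfra and Cspg4 did not reach the unadjusted threshold. Enpp6, an enzyme that marks oligodendrocytes as they start to differentiate, lay at 7.98 and 8.09 at 6 weeks, 7.66 and 7.77 at 8 weeks and 7.43 and 7.44 at 10 weeks. The ages did not overlap, and the difference was -0.60 ± 0.07 (adjusted p = 0.125, limma). Bmp4, a secreted ligand that these cells express, gave -0.36 ± 0.08, unadjusted p = 0.00152. The lineage factor Olig2 gave -0.27 ± 0.09, unadjusted p = 0.0150, whereas Pdgfra, the receptor of early precursors, gave -0.06 ± 0.10, unadjusted p = 0.538. The proteoglycan Cspg4 of precursors gave -0.13 ± 0.07, unadjusted p = 0.0984, and Gpr17, a receptor of cells about to differentiate, -0.25 ± 0.09, unadjusted p = 0.0184. In the precursor list, 8 of 26 genes were lower at the unadjusted threshold (3 without 6 weeks replicate 1 and 5 without 10 weeks replicate 1), 0 were higher, and the median was -0.13. Opalin, a membrane protein of myelinating cells, had the lowest p of all genes, at 8.41 and 8.41 at 6 weeks, 8.21 and 8.14 at 8 weeks and 7.89 and 7.88 at 10 weeks, a difference of -0.52 ± 0.06 (adjusted p = 0.125, limma). The 2 arrays of each age lay closer together there than the ages did. Mog, an outer myelin protein, lay at 9.84 and 9.90 at 6 weeks, 9.66 and 9.50 at 8 weeks and 9.44 and 9.36 at 10 weeks, a difference of -0.47 ± 0.08. Mag, the adhesion protein of the inner myelin sheath, gave -0.50 ± 0.08 (adjusted p = 0.253, limma, for both Mog and Mag). The structural protein Mbp (-0.12 ± 0.07, unadjusted p = 0.107) differed less. Il33, a cytokine that mature oligodendrocytes express, went the other way at 0.28 ± 0.08, unadjusted p = 0.00842; it is named because it was the 1 higher gene, after its value was seen. In the myelin list of 25 genes, 11 were lower (44.0%), 1 was higher and the median was -0.23, or -0.20 without 6 weeks replicate 1.

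On the deposited scale 19 of 19 measured genes of cholesterol synthesis were below 0, and 18 of 19 after median centring or quantile normalization. The median was -0.18, and -0.18 without 6 weeks replicate 1. Lower levels at an unadjusted p under 0.05 were seen for 11 genes (57.9%), but for 3 without that array, 6 without 6 weeks replicate 2 and 4 without 10 weeks replicate 1. In 16 genes both 10-week arrays lay below both 6-week arrays. Hmgcs1, which makes the precursor of mevalonate, lay at 11.08 and 11.07 at 6 weeks, 11.14 and 10.98 at 8 weeks and 10.66 and 10.88 at 10 weeks, a difference of -0.30 ± 0.11, unadjusted p = 0.0240. Its 6- and 8-week arrays overlapped, and the 10-week arrays lay below both. Dhcr7, which makes cholesterol in the last step of a branch of the pathway, lay at 9.78 and 9.91 at 6 weeks, 9.79 and 9.60 at 8 weeks and 9.50 and 9.41 at 10 weeks, a difference of -0.39 ± 0.08, unadjusted p = 0.00114. Idi1, the isomerase of isoprenoid units, gave -0.32 ± 0.10, unadjusted p = 0.0136, and its 2 probe sets had the same direction. Mvk and Pmvk, the 2 kinases that act after mevalonate is made, did not reach the threshold, at -0.06 ± 0.07, unadjusted p = 0.386, and -0.02 ± 0.08, unadjusted p = 0.80. The list's median was -0.04 from 6 to 8 weeks and -0.18 from 8 to 10 weeks; both steps share the 8-week arrays.

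Promoter windows are printed because these genes were lower together. Each window runs from 250 bases before to 50 after a gene's start in RefSeq, assembly GRCm38.p6, and is written 5′ to 3′ on the gene's strand. Capitals mark matches to CCAAT or its reverse complement ATTGG, a sequence bound by the factor NF-Y, and in Opalin to CTTTGT or its reverse complement ACAAAG, a core of SOX factor sites. The motifs were chosen after the values of the lists had been seen, and the windows to print after the match counts.
Hmgcs1, chr13:119690101-119690400, plus strand: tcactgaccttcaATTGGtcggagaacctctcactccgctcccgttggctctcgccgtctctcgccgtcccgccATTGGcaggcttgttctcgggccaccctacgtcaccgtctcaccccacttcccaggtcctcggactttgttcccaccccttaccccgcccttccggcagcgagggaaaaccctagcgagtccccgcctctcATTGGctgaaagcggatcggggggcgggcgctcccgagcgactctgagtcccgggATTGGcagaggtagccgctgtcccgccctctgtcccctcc
Idi1, chr13:8885356-8885655, plus strand: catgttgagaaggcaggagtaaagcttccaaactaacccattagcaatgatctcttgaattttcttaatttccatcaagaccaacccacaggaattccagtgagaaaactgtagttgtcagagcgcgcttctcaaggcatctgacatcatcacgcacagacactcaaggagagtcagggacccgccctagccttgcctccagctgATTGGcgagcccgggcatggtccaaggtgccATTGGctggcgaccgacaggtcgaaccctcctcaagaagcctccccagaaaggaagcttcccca
Dhcr7, chr7:143822917-143823216, plus strand: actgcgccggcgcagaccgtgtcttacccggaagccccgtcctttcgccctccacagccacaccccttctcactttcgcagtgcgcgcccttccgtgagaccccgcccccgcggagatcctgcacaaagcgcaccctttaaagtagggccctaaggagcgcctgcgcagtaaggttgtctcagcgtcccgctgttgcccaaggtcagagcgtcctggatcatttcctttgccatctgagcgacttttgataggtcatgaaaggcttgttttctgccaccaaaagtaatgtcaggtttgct
Opalin, chr19:41077064-41077363, minus strand: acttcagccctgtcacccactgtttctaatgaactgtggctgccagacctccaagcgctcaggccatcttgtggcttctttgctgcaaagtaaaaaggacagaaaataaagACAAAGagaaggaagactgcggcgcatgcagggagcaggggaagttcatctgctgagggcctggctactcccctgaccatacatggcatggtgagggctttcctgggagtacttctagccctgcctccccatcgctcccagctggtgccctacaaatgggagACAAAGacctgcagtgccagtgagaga
Hmgcs1 held 4 matches, Idi1 2, and the first of the 3 windows of Dhcr7, printed here, held 0. The second window of Dhcr7 also held 0, and the third held 2. Mvk and Pmvk did not reach the unadjusted threshold. The window of Mvk held 5 matches to CCAAT on either strand, and the windows of Pmvk held 1 and 0. Over the list, 16 of 19 windows from 16 genes held CCAAT on either strand (84.2%), against 37.4% of 19019 windows of all genes. SOX cores stood in 10 of 28 windows of the myelin list (35.7%, against 16.5%); Opalin held 2 matches and Mog 0. The E-box CAGATG stood in 4 of 22 windows of the neuroblast list (18.2%) and 1 of 19 of the intermediate progenitor list (5.26%), against 13.9% of all. The E-box CAGCTG stood in 6 of 22 (27.3%) and 7 of 19 (36.8%), against 16.2%. The first of 2 windows of Dcx and the window of Eomes held neither E-box. These 6 pairs of list and motif were all that were searched; a match is a description of letters, and none was tested.

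Genes of the brain's borders were lower at 10 weeks, some by larger amounts. The fibrillar collagens that head the meningeal list were divided. Col1a1 gave -0.09 ± 0.10, unadjusted p = 0.40, and Col1a2 -0.29 ± 0.11, unadjusted p = 0.0228. Col3a1 lay at 7.74 and 7.86 at 6 weeks, 8.09 and 7.83 at 8 weeks and 7.90 and 7.96 at 10 weeks, a difference of 0.12 ± 0.09, unadjusted p = 0.218, with both 10-week arrays above both 6-week arrays. The members of largest difference follow. Gjb2, the connexin 26 of leptomeninges, lay at 9.79 and 9.32 at 6 weeks, 9.11 and 8.93 at 8 weeks and 8.42 and 8.77 at 10 weeks, a difference of -0.95 ± 0.18, unadjusted p = 4.27e-04. Its 3 ages did not overlap. Aldh1a2, which makes retinoic acid in meninges, lay at 8.66 and 8.21 at 6 weeks, 8.18 and 8.18 at 8 weeks and 7.57 and 7.78 at 10 weeks, a difference of -0.76 ± 0.14, unadjusted p = 4.67e-04. Dcn, the matrix proteoglycan decorin, gave -0.96 ± 0.27, unadjusted p = 0.00563, with 10-week arrays at 9.28 and 10.03. Igf2, a growth factor of meninges and choroid plexus, gave -0.78 ± 0.21, unadjusted p = 0.00492, and Slc13a4, a sulfate transporter that both lists hold, -0.89 ± 0.28, unadjusted p = 0.0103. Of 21 meningeal genes, 12 were lower at the unadjusted threshold (57.1%) and 17 did not overlap in that direction (81.0%). The median was -0.39. Without 6 weeks replicate 1, 6 genes were lower and the median was -0.26; without 10 weeks replicate 1, 5 were lower and the median was -0.25. The mean level of this list was 9.21 and 8.99 at 6 weeks, 9.03 and 8.96 at 8 weeks and 8.55 and 8.82 at 10 weeks; its part in the other results was not tested.

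The choroid plexus list moved with 1 array. Ttr had a difference of -2.35 ± 0.91, and -0.54 without 6 weeks replicate 1. The median of the 29 genes was -0.24, and 0.06 without that array; lower genes at the unadjusted threshold went from 8 to 1 and higher genes from 0 to 1. The list had 20 lower genes without 6 weeks replicate 2. Vessel genes were lower in part. The endothelial list of 24 genes had a median of -0.13, and -0.11 without that array, with 4 genes lower and 0 higher (1 lower without 10 weeks replicate 1). The tight junction gene Cldn5 (-0.04 ± 0.14, unadjusted p = 0.762) and the VEGF receptor Flt1 (-0.08 ± 0.11, unadjusted p = 0.465) did not reach the threshold, whereas the VEGF receptor Kdr gave -0.37 ± 0.11, unadjusted p = 0.00875. Cdh5, the cadherin of endothelial junctions, gave -0.38 ± 0.11, unadjusted p = 0.00617. In the mural cell list, 3 of 16 genes were lower, including Vtn, the pericyte marker vitronectin (-0.56 ± 0.13, unadjusted p = 0.00188), and Anpep, a surface peptidase of pericytes (-0.78 ± 0.18, unadjusted p = 0.00168). The general mural markers Pdgfrb (-0.17 ± 0.10, unadjusted p = 0.106) and Rgs5 (-0.12 ± 0.10, unadjusted p = 0.260) did not reach the threshold.

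**Figure D3:**
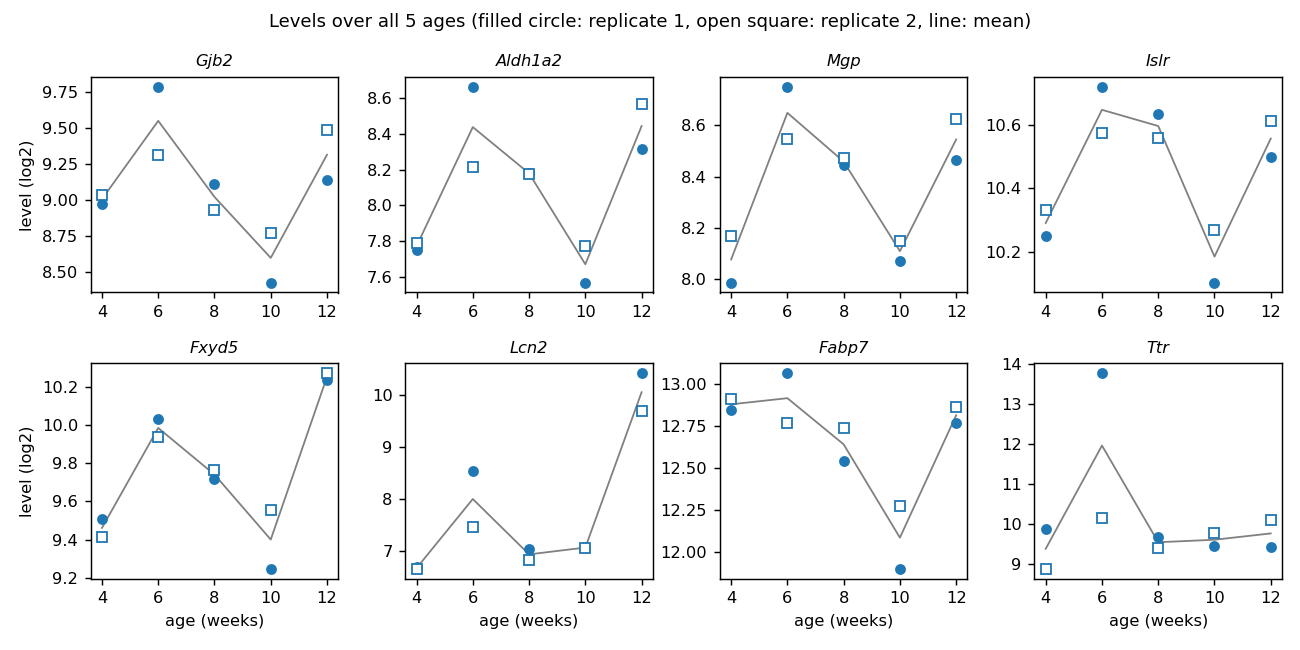
Levels (log2) on all 10 arrays at 4, 6, 8, 10 and 12 weeks for 8 genes; filled circles are replicate 1, open squares replicate 2, lines join the means and each panel has its own vertical range. Gjb2 and Aldh1a2 are lower at 10 weeks than at 6 and 12 weeks, and Ttr is high on 6 weeks replicate 1 alone.

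Guidance and matrix genes were lower in part. At the unadjusted threshold, lower genes made up 18.2% of the matrix list. For the BMP, TGF-beta and activin list the share was 19.4%. Over all genes it was 4.68%, and 5.82% among genes that were not dim. The shares of both lists fell when some single arrays were left out. Sema3c, a secreted semaphorin that steers axons and migrating cells, lay at 10.15 and 10.19 at 6 weeks, 9.71 and 9.84 at 8 weeks and 9.59 and 9.61 at 10 weeks, a difference of -0.57 ± 0.09 (adjusted p = 0.226, limma). The 3 ages did not overlap. Sema6a, a transmembrane semaphorin, gave -0.31 ± 0.08, unadjusted p = 0.00474, and Plxna3, a semaphorin receptor, -0.28 ± 0.07, unadjusted p = 0.00338. The secreted semaphorins Sema3a (-0.24 ± 0.13, unadjusted p = 0.104) and Sema3d (-0.24 ± 0.13, unadjusted p = 0.0895) did not reach the threshold. Of 47 guidance genes 10 were lower (21.3%), 0 were higher and 27 did not overlap in the lower direction (57.4%). The count was 6 lower and 1 higher without 6 weeks replicate 2. Tnc, the matrix glycoprotein tenascin C, lay at 8.70 and 8.50 at 6 weeks, 8.20 and 8.54 at 8 weeks and 7.75 and 8.03 at 10 weeks, a difference of -0.71 ± 0.13, unadjusted p = 4.53e-04, and Hapln1, a link protein of perineuronal nets, gave -0.26 ± 0.07, unadjusted p = 0.00386. Of the net proteoglycans, Acan gave -0.15 ± 0.07, unadjusted p = 0.0576, Bcan -0.06 ± 0.09, unadjusted p = 0.507, and Ncan -0.19 ± 0.08, unadjusted p = 0.0436. The matrix list had 4 of 22 genes lower, 2 without 10 weeks replicate 1 or either 4-week array, and a median of -0.07. Among BMP, TGF-beta and activin genes 7 of 36 were lower (3 without 6 weeks replicate 1 and 4 without 10 weeks replicate 1), including the ligands Bmp6 (-0.53 ± 0.17, unadjusted p = 0.0123) and Inhba (-0.38 ± 0.08, unadjusted p = 9.53e-04), and 0 were higher. The ligands Bmp2 (-0.07 ± 0.10, unadjusted p = 0.511) and Bmp3 (0.05 ± 0.11, unadjusted p = 0.641) did not reach the threshold. Mtss1, an actin-binding membrane protein outside the lists, gave -0.40 ± 0.06 (adjusted p = 0.253, limma).

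Fewer genes with a clear signal were higher. Plin4, a lipid droplet protein known to respond to glucocorticoids, lay at 7.68 and 7.76 at 6 weeks, 8.00 and 7.76 at 8 weeks and 8.42 and 8.16 at 10 weeks, a difference of 0.57 ± 0.12, unadjusted p = 7.70e-04. Both 10-week arrays lay above all others of these ages. Hif3a, another glucocorticoid-responsive gene, gave 0.30 ± 0.07, unadjusted p = 0.00221, and Mertk, a receptor for the uptake of dying cells, 0.24 ± 0.08, unadjusted p = 0.0147. Better-known targets of the receptor did not reach the threshold: Fkbp5 gave 0.07 ± 0.08, unadjusted p = 0.452, Sgk1 0.18 ± 0.11, unadjusted p = 0.119, and Tsc22d3 0.07 ± 0.09, unadjusted p = 0.448. In that list of 20 genes, 3 were higher with or without 6 weeks replicate 1, 1 was lower (0 without it) and the median was 0.05. Differences in the glucocorticoid list ran from -0.93 to 0.57, so its largest difference was downward. Fgfr3, a fibroblast growth factor receptor of astrocytes, lay at 10.54 and 10.52 at 6 weeks, 10.61 and 10.62 at 8 weeks and 10.89 and 10.77 at 10 weeks, a difference of 0.29 ± 0.07, unadjusted p = 0.00182. Fgf10, a ligand of that family named after its value was seen, gave 0.29 ± 0.08, unadjusted p = 0.00506; these were the 2 higher genes among 35 growth factors and receptors, of which 5 were lower (3 without 10 weeks replicate 1). The neurotrophin Bdnf gave -0.12 ± 0.08, unadjusted p = 0.144. Xdh, the purine-degrading xanthine dehydrogenase, gave 0.48 ± 0.09, unadjusted p = 4.24e-04, and Alox12b, a lipoxygenase of skin, 0.53 ± 0.09, unadjusted p = 2.71e-04. The higher gene with the lowest p, Trpc5os, was dim at a mean of 5.81 (0.56 ± 0.08, adjusted p = 0.130, limma). Of the 15 higher genes of lowest p 9 were dim, among them Dppa5a (0.49 ± 0.08, unadjusted p = 1.80e-04) and the granzyme Gzmg (0.45 ± 0.08, unadjusted p = 3.37e-04). Of the 15 lower genes 0 were dim. All dim genes together had a median difference of 0.076 on the deposited scale, and 0.0059 after quantile normalization. Of 12 CA1 pyramidal genes 2 were higher, Mpped1 (0.31 ± 0.12, unadjusted p = 0.0282) and Ndst4, a heparan sulfate enzyme (0.32 ± 0.11, unadjusted p = 0.0199). The 1 lower gene was decorin, Dcn, the largest difference of the list and a member of the meningeal list too. The median was 0.11. With 6 weeks replicate 1 left out, 1 gene was higher and 1 lower, with a median of 0.08, and without 10 weeks replicate 1 the counts were 0 and 0. The CA1 markers Wfs1 (0.04 ± 0.11, unadjusted p = 0.734) and Fibcd1 (0.06 ± 0.12, unadjusted p = 0.593) did not reach the threshold; CA1 is a neighbouring field, and the part of the cut was not tested.

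Lists of granule cells, receptors, oxidative phosphorylation and Notch signalling had medians near that of all genes. Both 10-week arrays lay below both 6-week arrays in 34.6% of granule cell, 38.2% of glutamate receptor and 37.5% of GABA-A genes. They lay above both in 2, 3 and 1 genes of those lists. For oxidative phosphorylation 11.4% lay below and 2 genes above, and for Notch signalling 18.2% and 4 genes. Over all genes 24.5% lay below and 21.9% above. The granule cell list had a median of -0.03 with 2 of 26 genes lower and 0 higher, one of them the homeodomain factor Prox1 (-0.18 ± 0.06, unadjusted p = 0.0207). The counts turned to 0 lower and 3 higher without 6 weeks replicate 1, with a median of -0.006, and Prox1 had an unadjusted p = 0.0970 (limma). Calb1, the calcium buffer calbindin, gave -0.09 ± 0.09, unadjusted p = 0.339, and C1ql2, a synaptic organiser of mossy fibres, 0.01 ± 0.07, unadjusted p = 0.888. For oxidative phosphorylation (35 genes), glutamate receptors (34), GABA-A receptors and chloride transport (16) and Notch signalling (22), 0 genes passed the unadjusted threshold in either direction; without 6 weeks replicate 1 the GABA-A list had 1 higher, and leaving out other single arrays gave each list at most 2 in either direction. Their medians were -0.01, -0.02, -0.01 and -0.03. The medians of the granule cell, oxidative phosphorylation, glutamate receptor and Notch lists turned positive after either median centring or quantile normalization, and that of the GABA-A list after median centring. With 2 arrays an age, differences of this size were not detectable for single genes.

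Single genes of other pathways were lower. The share of lower genes was 4.88% for Wnt, 14.7% for activity-dependent and 10.7% for interferon genes. It was 12.5% for microglia, 16.7% for chaperones and 3.85% for interneurons, against 4.68% of all genes. The Wnt and interneuron shares lay near that of all genes, so nothing is read about those lists. Sfrp1, a secreted inhibitor of Wnt signals, lay at 8.56 and 8.34 at 6 weeks, 8.15 and 8.20 at 8 weeks and 7.77 and 8.00 at 10 weeks, a difference of -0.56 ± 0.10, unadjusted p = 2.58e-04. With Wnt5a (-0.40 ± 0.12, unadjusted p = 0.00824) it made up the 2 lower genes of 41 in the Wnt list, whose median was 0.01, and 0 were higher. The Wnt counts were 1 lower and 1 higher without 6 weeks replicate 1, and Wnt5a had an unadjusted p = 0.0672 (limma). The ligands Wnt2 (0.17 ± 0.09, unadjusted p = 0.0861) and Wnt3 (0.05 ± 0.09, unadjusted p = 0.604) did not reach the threshold. Activity-dependent genes had 5 of 34 lower and 1 higher, with Egr1 at -0.24 ± 0.10, unadjusted p = 0.0440, and Fosb at -0.24 ± 0.09, unadjusted p = 0.0267. There were 3 lower and 0 higher without 6 weeks replicate 1, and Fosb had an unadjusted p = 0.139 (limma); without 6 weeks replicate 2 or 10 weeks replicate 1 there were 2 lower. Fos gave -0.14 ± 0.19, unadjusted p = 0.488, and Fosl2 -0.03 ± 0.06, unadjusted p = 0.602. Among 28 interferon and antigen presentation genes 3 were lower and 0 higher (1 lower and 2 higher without 6 weeks replicate 1, 1 lower without 10 weeks replicate 1), including Cd74, the invariant chain of MHC class II (-0.40 ± 0.09, unadjusted p = 0.00216). The microglial list had 3 of 24 lower (1 without 6 weeks replicate 1 or without 10 weeks replicate 2), including Cx3cr1, the fractalkine receptor (-0.18 ± 0.07, unadjusted p = 0.0241), and the purine receptor P2ry13 (-0.34 ± 0.10, unadjusted p = 0.00959). Of 24 chaperone genes 4 were lower, among them Hyou1 of the endoplasmic reticulum (-0.24 ± 0.08, unadjusted p = 0.0116), but 0 without 6 weeks replicate 1 and 1 without 10 weeks replicate 1. Ndnf, a secreted protein of a class of interneurons, was the 1 lower gene of the interneuron list, at 10.26 and 10.06 at 6 weeks, 10.05 and 10.02 at 8 weeks and 9.73 and 9.77 at 10 weeks, a difference of -0.41 ± 0.08, unadjusted p = 6.07e-04. Its 3 ages did not overlap. The general interneuron marker Gad1 gave -0.08 ± 0.06, unadjusted p = 0.270.

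**Figure D4:**
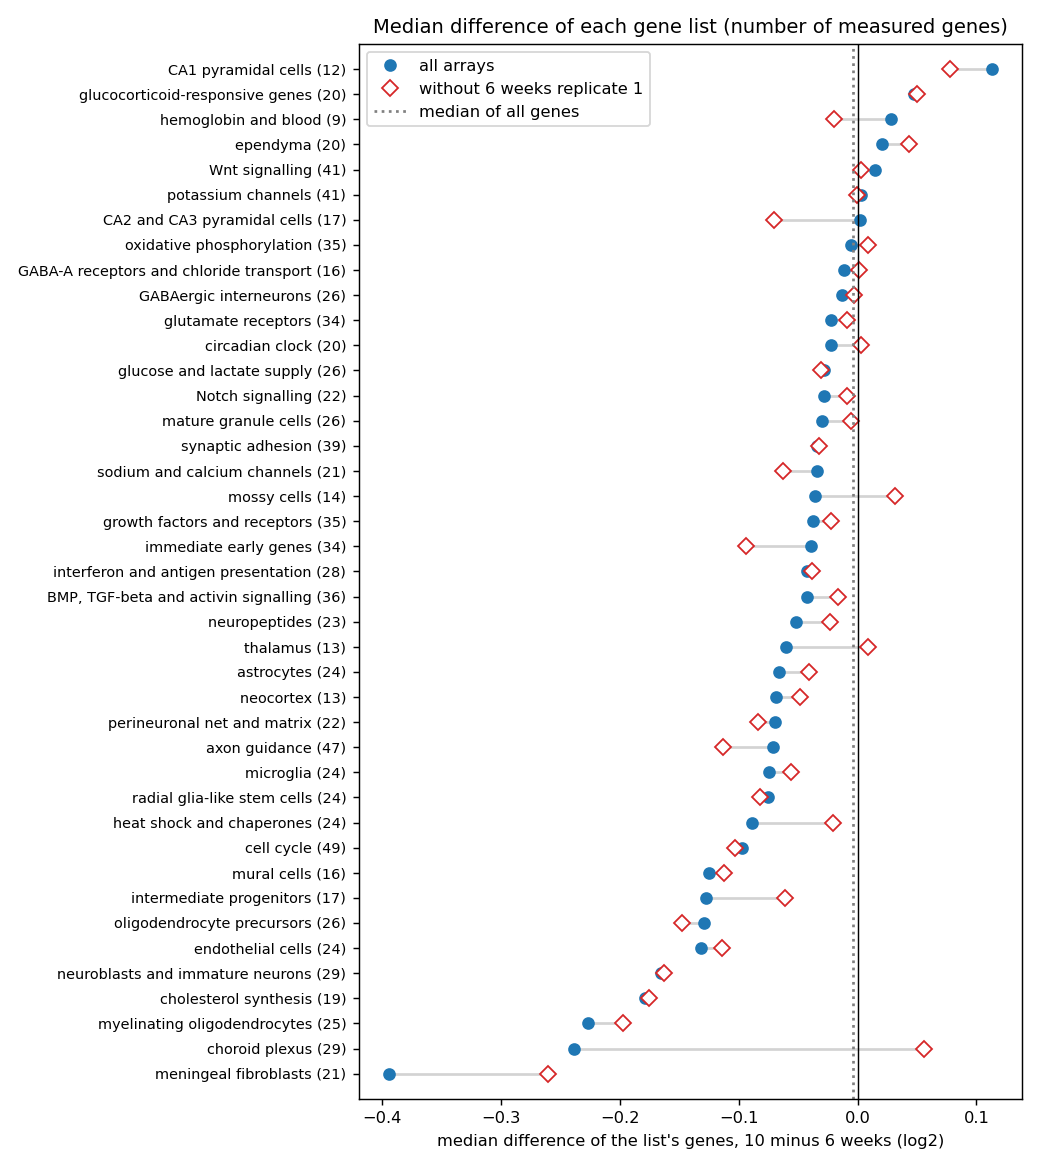
Median difference, 10 minus 6 weeks (log2), of the measured genes of each of 41 lists, with the number of genes in brackets. Blue points use all arrays, open red diamonds leave out 6 weeks replicate 1 and the dotted line is the median of all genes. Meningeal, myelin, cholesterol and neuroblast lists lie well below the dotted line with or without that array, while the choroid plexus list goes from -0.24 to 0.06.

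The 8-week mean lay between those of 6 and 10 weeks for 38.2% of all genes. Among the 925 lower genes it did so for 804 (86.9%), and among the 670 higher genes for 474 (70.7%); these genes were chosen for a difference between the outer ages, so nothing is read from the excess. The steps were uneven between groups. The myelin list had medians of -0.19 from 6 to 8 weeks and -0.03 from 8 to 10 weeks, the neuroblast list -0.07 and -0.09, and the meningeal list -0.08 and -0.31. The difference between steps was not tested.

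The interval from 4 to 12 weeks, measured on other arrays, gave 819 higher (4.15%) and 1072 lower genes (5.43%) at an unadjusted p under 0.05. Of the 925 genes lower at 10 than 6 weeks, 269 were lower there too, which is 29.1% of the first list and 25.1% of the second, and 41 (4.43%) were higher there. Of the 670 higher genes 68 were higher there too, 10.1% of the first list and 8.30% of the second. Both intervals took each gene's spread from the same fit, so a gene with little spread passed more easily in both. These overlaps are therefore not those of independent tests. Dcx had a difference of -1.38 ± 0.07 from 4 to 12 weeks, Eomes -1.05 ± 0.10 and Mog -0.71 ± 0.08, each the same direction as from 6 to 10 weeks. Border genes did not keep theirs: Aldh1a2 had 0.67 ± 0.14, and the meningeal list a median of 0.18 with 6 genes higher and 0 lower. Vessel lists did not either. The endothelial list had a median of 0.13 with 7 higher and 0 lower, and the mural list 0.10 with 6 higher and 0 lower. Fabp7 had -0.07 ± 0.14 from 4 to 12 weeks, while the stem cell list as a whole had a median of -0.11. The difference between the 2 intervals passed the adjusted threshold for 2 genes of 19752 (0.0101%), Lcn2 and Fxyd5. Fxyd5, a regulator of the sodium pump, lay at 9.51 and 9.42 at 4 weeks, 10.03 and 9.94 at 6 weeks, 9.72 and 9.77 at 8 weeks, 9.25 and 9.55 at 10 weeks and 10.23 and 10.27 at 12 weeks. It was lower at 10 than 6 weeks (-0.59 ± 0.10) and higher at 12 than 4 weeks (0.79 ± 0.10), and the intervals differed by 1.38 (adjusted p = 0.0477, limma). For Aldh1a2 the adjusted p of that difference was 0.153 (limma), so it did not pass. The count of 2 genes was 0 when any one array of 4, 8 or 12 weeks, or 10 weeks replicate 1, was left out, 1 without 6 weeks replicate 1 or without 10 weeks replicate 2, and 9 without 6 weeks replicate 2.

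**Figure D5:**
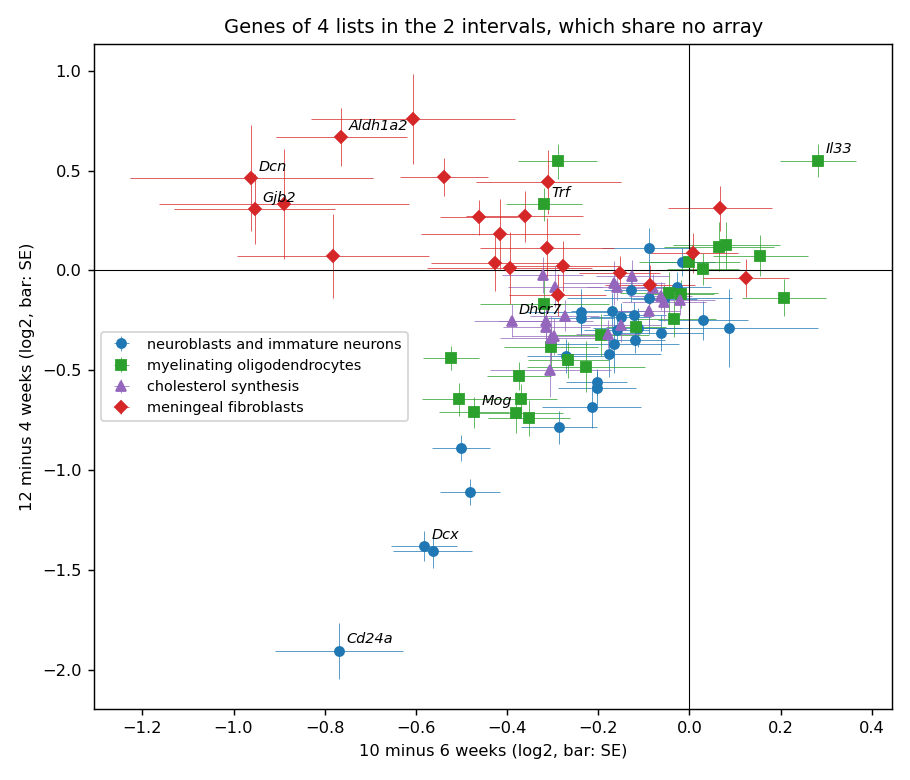
Difference from 4 to 12 weeks (log2, vertical axis) against that from 6 to 10 weeks (log2, horizontal axis) for the genes of 4 lists. Bars are standard errors. The intervals share no array, but their standard errors come from the same fit. Most neuroblast, cholesterol and myelin genes lie in the lower left, Dcx at -0.58 and -1.38, and most meningeal genes in the upper left.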

How the data were processed

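Expression was measured on 10 Affymetrix arrays, 2 at each of 5 ages. The values deposited by the authors were taken as log2 expression per probe set, from their range; the log base, summarization and normalization are not given in the sources used here. The genome build was mm10, per the submitters' processing notes. Of 25254 probe sets 21496 had 1 gene in the platform annotation, 1565 several and 2193 none. The probe set of highest mean was used for the 938 genes with several. Age was a factor over all 10 arrays (5 residual degrees of freedom) in limma 3.58.1 (R 4.3.3), two-sided, with Benjamini-Hochberg adjustment and a threshold of 0.05; the script was tested on simulated data. The main fit did not pair arrays by replicate number. The members, the 41 gene lists and the named genes were chosen with earlier results of these data known. Genes were named from those allowed by a rule: per direction, the 15 of lowest p since none passed; of each list its first 3 measured members and up to 4 of largest difference at an unadjusted p under 0.05; and 5 per direction for the interval difference. The text names 109 of the 232 genes so allowed, picked after their values were seen. The number of arrays limits the precision. No scan date was used here.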

Additional observations from a re-analysis of the deposited data

Results flagged for a closer look

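The change from 4 to 12 weeks differed from that from 6 to 10 weeks, by a test of the difference itself, for 2 genes. Lcn2, which encodes the secreted iron-binding protein lipocalin 2, lay at 6.70 and 6.66 at 4 weeks, 8.54 and 7.47 at 6 weeks, 7.05 and 6.84 at 8 weeks, 7.09 and 7.06 at 10 weeks and 10.42 and 9.69 at 12 weeks. The intervals differed by 4.30 ± 0.45 log2 units (adjusted p = 0.0477, limma), with both 12-week arrays above all others. Fxyd5 differed by 1.38 ± 0.14 (adjusted p = 0.0477, limma).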

How the results depend on the processing

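Median differences of the neuroblast, myelin, cholesterol, meningeal, precursor, endothelial and cell cycle lists stayed below 0 under the 6 alternatives run for lists; that of the choroid plexus list turned without 6 weeks replicate 1. Leaving out each array, lower genes at an unadjusted p under 0.05 numbered 7 to 15 in the neuroblast, 3 to 5 in the intermediate progenitor, 5 to 9 in the stem cell, 6 to 10 in the cell cycle, 3 to 9 in the precursor, 9 to 12 in the myelin, 3 to 11 in the cholesterol, 5 to 15 in the meningeal, 1 to 7 in the endothelial and 6 to 12 in the guidance lists, and higher genes at most 2 in each. Adjusted calls between 10 and 6 weeks appeared under 4 of 22 alternatives: 6 lower genes without the dimmest 30% of genes, 22 with trended variance, 1 higher and 7 lower with array weights, and, leaving out each array, between 0 and 8 lower and 0 and 0 higher. The 6 were Dcx, Dpysl3, Dpysl5, Enpp6, Eomes and Opalin, which array weights and trended variance passed too. Between 8 and 6 weeks leaving out each array gave 0 to 876 higher and 0 to 203 lower genes. Genes whose intervals differed numbered 0 with the replicate block, 12 without dim genes, 31 with trended variance, 0 with robust variance, 4 with array weights, 0 with the choroid plexus covariate and 0 to 9 leaving out each array. Counts at an unadjusted p under 0.05, alternatives to which were added after the data were seen, were 1183 higher and 539 lower after median centring, 304 higher without dim genes, 1282 higher with array weights, 1282 higher from the arrays of 6 and 10 weeks only, 361 higher and 398 lower with the covariate, and 298 to 1378 higher and 402 to 1265 lower leaving out each array. Groups without overlap numbered 2239 higher without dim genes and 3047 lower after centring. With 1 array at 6 weeks, alone or also without 8 weeks replicate 1, they were 6446 higher and 7354 lower, where a lone array makes overlap rarer. Of the named genes 13 changed sign in some alternative, none with an unadjusted p under 0.05 on all arrays. Leaving out each array gave -0.1262 to 0.0006 for Bcan, -0.1639 to 0.0236 for Bmp2, -0.04 to 0.0611 for C1ql2, -0.1257 to 0.0404 for Cldn5, -0.105 to 0.2339 for Fibcd1, -0.0475 to 0.1775 for Fkbp5, -0.0294 to 0.044 for Gjb6, -0.0778 to 0.105 for Neurog2, -0.074 to 0.0344 for Pmvk, -0.2544 to 0.0054 for Rgs5, -0.1174 to 0.1933 for Wfs1 and -0.0259 to 0.1246 for Wnt3. Quantile normalization gave 0.0117 for Cldn5, 0.0121 for Fosl2, -0.0097 for Neurog2 and 0.0151 for Pmvk, and median centring 0.0009 for Fosl2 and 0.0146 for Pmvk. The covariate gave 0.0718 for Cldn5, -0.0852 for Fibcd1 and -0.1053 for Wfs1. Without 6 weeks replicate 1 and 8 weeks replicate 1 together, the values were 0.0192, -0.105 and -0.1174 for those 3 and -0.0526 for Neurog2. A lone array of an age is assumed to vary like the other ages. The causes of these shifts were not tested. Deviations of replicate 1 from the mean of its age had a correlation of 0.03 between 6 and 10 weeks. It was -0.34 between 6 and 8 weeks, 0.007 between 8 and 10 weeks and 0.16 between 4 and 10 weeks. These values cannot show if same-numbered arrays were handled together. The replicate block passed 0 genes between 10 and 6 weeks. Depth here is signal over background, and 27.2% of genes were dim.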
